A study of Homo sapiens with 8 samples.

Results

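The HOX cluster genes are the homeobox transcription factor genes of the HOXA, HOXB, HOXC and HOXD clusters. They were chosen by symbol alone, as every row named HOX, a cluster letter and a number, which gave 39 of the 39533 genes in the table: 11 in HOXA, 10 in HOXB, 9 in HOXC and 9 in HOXD. Their RNA was measured in 8 libraries of HCT116, an established human colorectal cancer cell line, which fall into 3 groups in a self-seeding model, where cells that left a tumour come back to it. Self-seeded cells (TSC, n = 3) and primary tumour cells (PC, n = 3) both carry the tissue label primary tumour, and circulating tumour cells (CTC, n = 2) carry the label blood. All groups derive from the same line and no treatment is labelled, while the series title names liver cancer and no label names the host. Nothing in the labels ties replicates to separate animals or cultures, so p-values measure only the spread between these libraries, which may be technical.

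HOX proteins bind DNA through a homeodomain and give cells their position along the body axis. Genes with low paralogue numbers, at one end of each cluster, act in anterior structures such as the hindbrain, and those with high numbers act posteriorly, in the limbs, hindgut and urogenital tract. HOX proteins bind DNA together with cofactors of the PBX, MEIS and PKNOX families. Polycomb complexes keep the clusters repressed where they are not used, and trithorax-group methyltransferases keep them active. The intestinal factor CDX2 is one of the known regulators of HOX genes in gut epithelium.

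Total counts ranged from 957607 in CTC replicate 1 to 19264595 in PC replicate 3, and HOX genes held 233 to 5584 of them. Levels are given as CPM, edgeR's counts scaled to a common library size with TMM factors, and, where genes are compared with each other, as CPM per kilobase of exon. A count of 0 allowed up to 2.99 CPM in CTC replicate 1 and 0.156 to 0.669 CPM in the other libraries (3 counts as the floor, counting error only). Of 12 epithelial and colorectal markers 7 were tested, with EPCAM at 391 to 616 CPM, while CLDN7, CDX1 and KRT20 were at 0 in every library. Of 22 leukocyte markers 12 were tested, and edgeR called 8 of these higher in CTC than in PC (adjusted p under 0.05, 3.92% of all genes). All 22 summed to 491 and 207 CPM in the CTC libraries against 23.9 to 30.3 CPM in PC, with TSC at 38.6 to 55.4 CPM, and CD3E, NKG7, MPO, S100A8 and S100A9 were at 0 throughout.

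The clusters lie on chromosomes 7 (HOXA, 27092993 to 27200091), 17 (HOXB, 48528526 to 48728750), 12 (HOXC, 53938831 to 54056030) and 2 (HOXD, 176087487 to 176190907) in RefSeq coordinates of GRCh38, the build named hg38 in the submitters' processing notes. Promoter windows were read from RefSeq (GRCh38.p14), which held 27 entries for 20 of the 39 members. Shown here, 5′ to 3′, are the 250 bases before the start of HOXA7, the highest member with an entry, of HOXD8, the single HOXD gene with enough counts to test, and of HOXD1 and HOXD12, members of the same cluster with 0 counts. Capitals mark CG dinucleotides, the sites at which promoters can be methylated. The windows are chr7:27156676-27156925 on the minus strand and, on the plus strand, chr2:176129455-176129704, chr2:176188418-176188667 and chr2:176099545-176099794.
HOXA7: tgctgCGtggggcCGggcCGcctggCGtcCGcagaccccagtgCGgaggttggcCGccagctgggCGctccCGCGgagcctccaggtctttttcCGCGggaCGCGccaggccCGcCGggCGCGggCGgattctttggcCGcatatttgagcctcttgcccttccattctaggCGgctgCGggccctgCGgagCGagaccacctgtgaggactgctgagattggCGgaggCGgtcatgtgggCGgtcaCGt
HOXD8: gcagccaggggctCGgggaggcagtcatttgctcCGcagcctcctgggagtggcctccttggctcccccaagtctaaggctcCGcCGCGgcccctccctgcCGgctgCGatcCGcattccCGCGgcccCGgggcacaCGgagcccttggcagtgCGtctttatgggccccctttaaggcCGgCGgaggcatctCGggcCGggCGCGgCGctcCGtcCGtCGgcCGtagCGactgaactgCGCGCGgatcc
HOXD1: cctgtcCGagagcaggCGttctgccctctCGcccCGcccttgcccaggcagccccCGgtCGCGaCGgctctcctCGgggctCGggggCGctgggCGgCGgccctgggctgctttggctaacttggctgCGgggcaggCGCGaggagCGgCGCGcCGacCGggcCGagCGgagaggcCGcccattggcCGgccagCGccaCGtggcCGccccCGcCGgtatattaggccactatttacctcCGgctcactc
HOXD12: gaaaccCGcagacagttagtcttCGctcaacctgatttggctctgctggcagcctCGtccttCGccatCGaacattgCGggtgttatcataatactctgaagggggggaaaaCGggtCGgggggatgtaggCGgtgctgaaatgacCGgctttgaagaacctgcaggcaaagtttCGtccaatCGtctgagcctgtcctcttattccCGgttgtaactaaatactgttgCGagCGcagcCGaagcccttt

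The HOXA7 and HOXD8 windows each held 28 CG dinucleotides, the HOXD1 window 31 and the HOXD12 window 16. CG dinucleotides were thus as frequent before uncounted HOXD1 as before HOXA7. Over the tested members the windows held 0 to 40 CG dinucleotides (median 19, 17 windows of 11 genes). Several of these windows, with 0 to 26 CG dinucleotides, belong to HOXA3, so this median does not weigh genes equally. Over the 4 members at 0 with an entry the windows held 7 to 31 (median 18.5). Over all 35116 RefSeq promoters they held 0 to 67 (median 11). HOXC4 and HOXC5 share 1 window. The TATA motif TATAAA, read on both strands, was in 4 of 17 windows of tested members (HOXA3, HOXA9 and, for both of its windows, HOXA10), in the HOXD13 window among those at 0, and in 10.7% of all promoters. The PBX-HOX motif TGATTNAT, also on both strands, was in the windows of HOXA2 and HOXD11 and in 2.48% of all promoters. These matches describe letters in a window and not sites in use.

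The clusters differed in how many members were measured. After the filter on low counts 26 of the 39 genes were tested, 8 had a few counts and 5 were at 0 in all 8 libraries. The tested members were 10 of 11 in HOXA, 8 of 10 in HOXB, 7 of 9 in HOXC and 1 of 9 in HOXD. Of all 19064 protein-coding rows, by comparison, 63.1% were tested and 20.4% were at 0, against 66.7% and 12.8% of HOX genes. The 5 at 0 were HOXB1, a hindbrain gene, and HOXD1, HOXD9, HOXD12 and HOXD13, the last a gene of digit formation. At this depth a 0 sets a limit and does not show that a gene was off. RING1, a core Polycomb gene, was also at 0 throughout, while RNF2, another such gene, had 5631 counts. The reason for the 0 of RING1 was not tested.

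**Figure D1:**
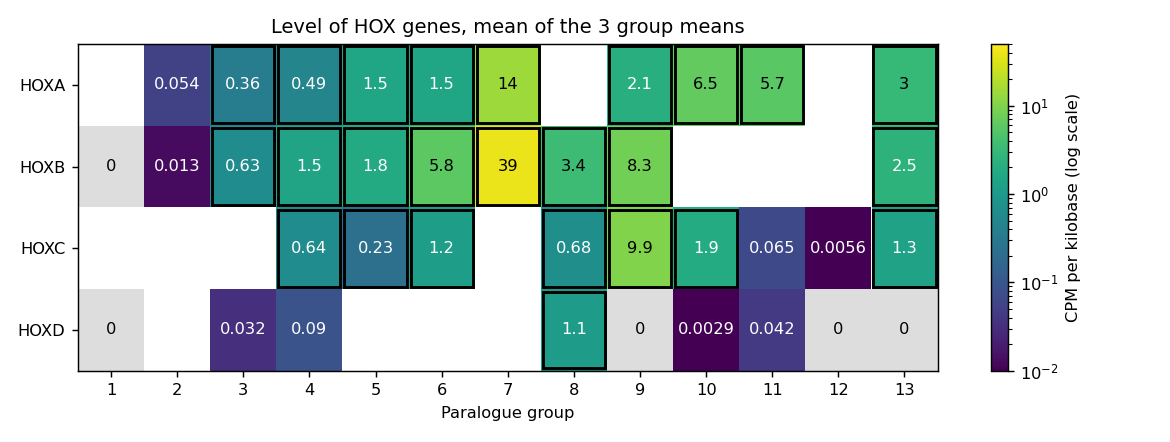
Level of HOX genes as CPM per kilobase of exon (mean of the 3 group means), with clusters in rows and paralogue groups in columns. Black frames mark 25 tested genes, grey cells are at 0 counts in all 8 libraries, levels under 0.01 have the darkest colour, and white positions hold no gene or none shown. HOXB7 has the highest level, at 39.4, and the HOXD row has 1 frame, at HOXD8.

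The members with a few counts were HOXA2, HOXB2, HOXC11, HOXC12, HOXD3, HOXD4, HOXD10 and HOXD11. They held 1 (HOXD10) to 22 (HOXC11) counts over all libraries, with at most 8 in 1 library. The lowest tested member, HOXC5, held 40. Some of them were spread over the groups and some were not: HOXD4 had 4, 6 and 3 counts in PC and 2 in TSC replicate 2, whereas HOXD3 had 7 and 6 counts in TSC replicates 2 and 3 and 0 elsewhere. HOXA2, a gene of the branchial arches, had 5 and 7 counts in PC replicates 1 and 2 and 2 in TSC replicate 2. Median exon length was 2481 bases for tested, 2575 for low and 1975 for uncounted genes. Exon bases shared with another gene of the table were more common among tested members, at 19 of 26, than among low (4 of 8) and uncounted ones (1 of 5).

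The number of tested genes also differed by paralogue group. Tested were 3 of 8 anterior genes (groups 1 to 3), 14 of 15 central genes (groups 4 to 8) and 9 of 16 posterior genes (groups 9 to 13). The genes not tested include HOXD1, HOXD3, HOXD4 and HOXD9 to HOXD13, so these numbers mix position with cluster. Group 7 held the highest levels of both clusters that have it, 39.4 CPM per kilobase for HOXB7 and 14.4 for HOXA7. Among the posterior genes, group 9 had HOXC9 at 9.91, HOXB9 at 8.26 and HOXA9 at 2.13, with HOXD9 at 0. Group 13, the most posterior, had HOXA13 at 3.03, HOXB13 at 2.49 and HOXC13 at 1.34, with HOXD13 at 0. HOXC11 and HOXC12 lay at 0.0645 and 0.00558 CPM per kilobase, between the tested genes HOXC10 (1.91) and HOXC13.

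Genes on either side of the clusters were counted. LNPK and MTX2, which flank HOXD, stood at 7.18 and 14 CPM per kilobase, with 5396 and 1727 counts in all. EVX2, the homeobox gene next to HOXD13, was at 0, and EVX1, beyond HOXA13, had 3 counts. Beside HOXA, SKAP2 stood at 5.51 and HIBADH at 11.7 CPM per kilobase, levels near those of HOXA10 (6.50) and HOXA7. Of the 14 flanking genes, 12 were tested. In each comparison edgeR, DESeq2 and limma-voom called 0 of them. In TSC against PC, 1 had an unadjusted edgeR p under 0.05 (10.3% of all genes), and the median was −0.07 on the log2 scale. In CTC against PC these were 0 (23.6%) and −0.09, and in TSC against CTC 1 (16.7%) and −0.03.

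Among the tested genes, HOXB7 stood apart. HOXB7 (chromosome 17, 48607232 to 48611017), a gene found at raised levels in several carcinomas, was at 52.1, 47 and 55.2 CPM in PC, 66.9, 61.3 and 67.4 CPM in TSC and 51.9 and 76.0 CPM in CTC. Its lowest library, at 30.8 CPM per kilobase, lay above the highest library of any other HOX gene (18.3, HOXA7). From HOXA7 down to HOXC5, each gene's range over the 8 libraries overlapped that of the next gene in the order, so neighbours in this order do not differ beyond their spread. HOXA7 was at 35.0, 34.4 and 44.1 CPM in PC, 18.3, 40.9 and 43.1 CPM in TSC and 26.9 and 37.4 CPM in CTC. TSC replicate 1 was its lowest library.

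Beneath these, several posterior genes of HOXA, HOXB and HOXC had counts in every library. HOXC9 (chromosome 12, 54000161 to 54003337) was at 19.5, 20.1 and 19.5 CPM in PC, 18.9, 17.0 and 11.9 CPM in TSC and 5.98 and 22.5 CPM in CTC, where the replicates disagreed. HOXB9 was at 19.6, 23.3 and 23.6 CPM in PC, 22.7, 21.6 and 29.8 CPM in TSC and 9.97 and 24.2 CPM in CTC. CTC replicate 1 had the lowest value of both genes, from 6 and 10 counts. HOXA10, a gene of uterine development, was among the steadiest, at 24.8, 21.1 and 24.8 CPM in PC, 22.5, 20.8 and 22.8 CPM in TSC and 28.9 and 24.5 CPM in CTC. HOXA11, which acts in limb and kidney, was at 11.5, 15 and 13.9 CPM in PC, 11.4, 9.95 and 12.6 CPM in TSC and 9.97 and 19.5 CPM in CTC. For HOXA10 both CTC libraries lay above all TSC libraries (edgeR adjusted p = 0.647 for TSC against CTC), and its other groups, like all those of HOXA11, overlapped. HOXB13, best known from the prostate and distal colon, was at 10.6, 7.45 and 9.45 CPM in PC, 6.24, 8.61 and 9.31 CPM in TSC and 5.98 and 11.4 CPM in CTC, again with overlap. HOXA9, a gene of blood progenitors and leukaemia, was at 6.95, 2.67 and 9.09 CPM in PC, 6.02, 5.51 and 7.87 CPM in TSC and 6.98 and 6.39 CPM in CTC. Its PC libraries therefore spanned those of both other groups. HOXC10, a gene of lumbar spinal cord and hindlimb, was at 5.03, 4.23 and 10.5 CPM in PC, 3.57, 4.52 and 2.89 CPM in TSC and 1.99 and 4.29 CPM in CTC. HOXD8 (chromosome 2, 176129705 to 176132695) was at 2.85, 2.94 and 2.34 CPM in PC, 2.67, 5.36 and 1.72 CPM in TSC and 1.99 and 3.05 CPM in CTC.

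**Figure D2:**
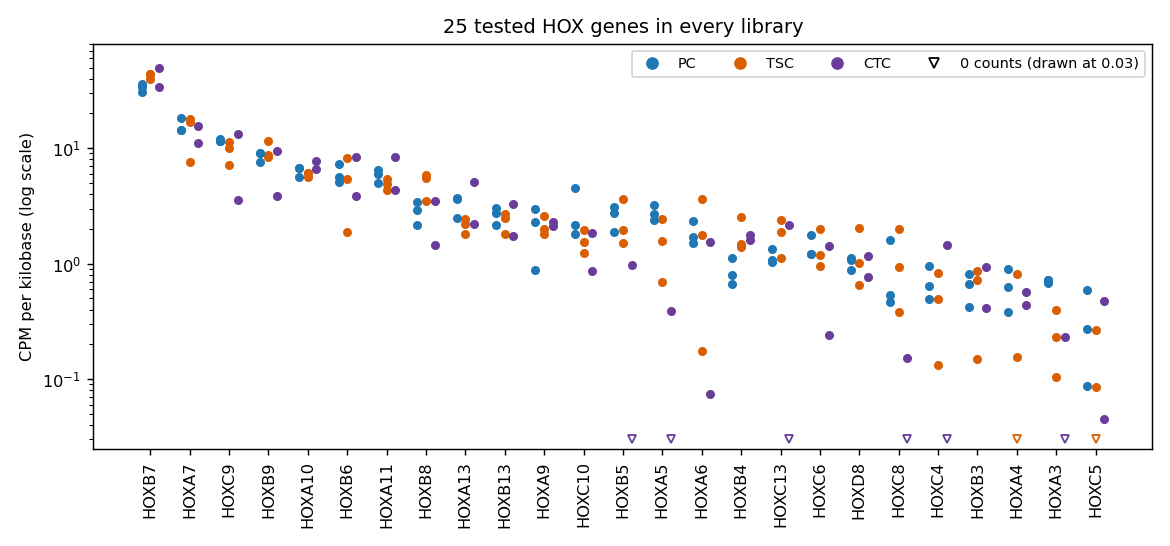
CPM per kilobase (log scale) of 25 tested HOX genes in each library, ordered by level and coloured by group. Open triangles are libraries with 0 counts, drawn at 0.03. HOXB7 lies above every other gene in each library, and all triangles belong to CTC libraries or, for HOXA4 and HOXC5, to TSC replicate 1.

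Some of these counts cannot be assigned with certainty, because the clusters hold antisense and overlapping transcripts and the strand setting of the counting is not given. In GENCODE 29, 62.5% of the exon bases of HOXA7 lie opposite HOXA-AS3, which had 59 counts in all against 3199 for HOXA7. HOXA6 shares 39.3% with the same transcript, HOXA11 31.1% with HOXA11-AS, and HOXB6 33.0% with HOXB3 and HOXB-AS3. HOXC4, HOXC5 and HOXC6 share 14.4% to 17.8% of their exon bases. HOXB7, HOXB8, HOXB9, HOXB13, HOXA5, HOXC8 and HOXD8 share none with another gene of the table. HOXA10-HOXA9, a readthrough transcript listed as a gene of its own, was at 0 in all libraries, and how reads common to it and HOXA9 or HOXA10 were counted is not given.

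Summed over members, HOX genes held 246 to 290 CPM in PC, between 237 and 288 CPM in TSC, and 232 and 278 CPM in CTC. The groups overlapped in this total. HOXB and HOXA together held most of it. The HOXB share was 43.6% ± 1.57 (SD, n = 3) in PC, 51.5% ± 1.64 (n = 3) in TSC and 48.1% ± 2.52 (n = 2) in CTC. Its libraries ran from 41.8% to 44.8% in PC and from 49.8% to 53.1% in TSC, without overlap, with CTC at 46.4% and 49.9%. The HOXA shares of PC (39.6% to 42.89%) and TSC (30.05% to 37.69%) did not overlap either. Summed HOXB CPM did overlap, at 108.4 to 123.3 in PC and 122.6 to 145.9 in TSC. The mean HOXB sum was 117.6 CPM in PC and 137.4 CPM in TSC, of which HOXB7 held 51.45 and 65.16 CPM. Of the 8 tested HOXB members, 4 had a positive log2 fold change in TSC against PC and 4 a negative one. The HOXA share was 41.0% ± 1.71 in PC, 34.6% ± 4.0 in TSC and 41.0% ± 5.78 in CTC, the HOXC share 14.3% ± 0.631, 12.5% ± 4.44 and 9.86% ± 3.02, and the HOXD share 1.15% ± 0.273, 1.39% ± 0.672 and 1.03% ± 0.243. HOXC was uneven in TSC, at 17.2%, 12.1% and 8.33% in replicates 1 to 3. Shares of 1 library add up to a fixed whole, and no test was made on these sums.

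**Figure D3:**
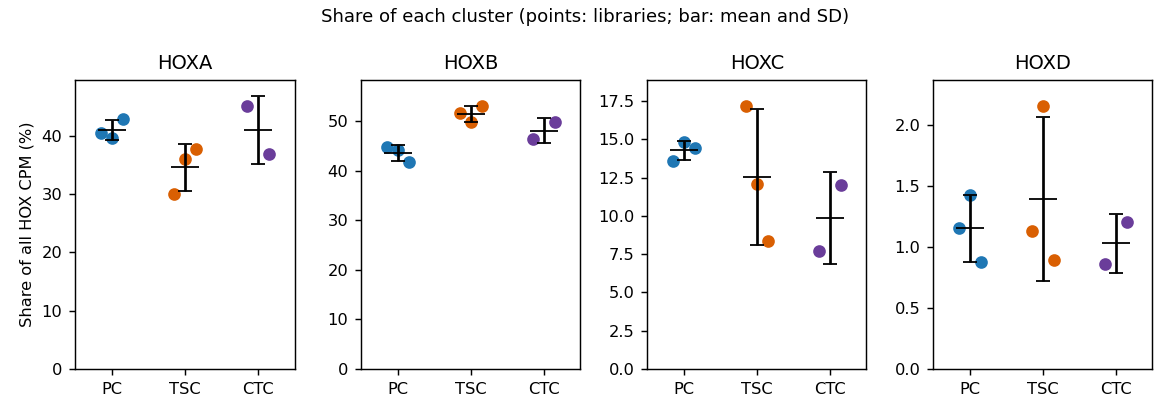
Share of all HOX CPM held by each cluster, in percent, with libraries as points and the mean and SD of each group as bars (PC n = 3, TSC n = 3, CTC n = 2). The HOXB shares of TSC (49.8% to 53.1%) lie above those of PC (41.8% to 44.8%), and HOXD stays at or under 2.15% in every library.

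TSC were set against PC, which addresses what separates returned cells from resident ones. Here 0 of 26 tested members were called by edgeR's quasi-likelihood test at an adjusted p under 0.05, where 0.505% of 14255 genes were. DESeq2 called 0 of 20 members (1.59% of all genes) and limma-voom 0 of 26 (3.88%). At an unadjusted p under 0.05 there were 2 members, against 10.3% of all genes. The median log2 fold change was −0.12 over the tested members, 17 of them negative, and 0.01 over all genes.

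Both members were in HOXB. HOXB4, known for expanding blood stem cells, was at 2.51, 4.23 and 3.01 CPM in PC and 9.58, 5.22 and 5.52 CPM in TSC. Every TSC library lay above every PC library, with a log2 difference of 1.03 ± 0.42 SE (edgeR adjusted p = 0.415). HOXB8, a gene that can block myeloid differentiation, was at 7.04, 5.98 and 4.47 CPM in PC and 7.13, 11.9 and 11.4 CPM in TSC. TSC replicate 1 lay barely above the highest PC library, and the log2 difference was 0.82 ± 0.36 SE (edgeR adjusted p = 0.455). HOXB7 lay higher in each TSC library than in each PC library as well (0.34 ± 0.18 SE, edgeR adjusted p = 0.555). HOXA3, a gene of thymus and parathyroid development, was at 3.10, 3.13 and 2.91 CPM in PC and 0.446, 1.69 and 0.995 CPM in TSC, and HOXA13, at 18.9, 12.7 and 18.5 CPM in PC and 9.14, 12.5 and 11.2 CPM in TSC, was likewise lower in each TSC library. In CTC the replicates of HOXA13 stood apart, at 25.9 and 11.3 CPM, and those of HOXB8 were at 2.99 and 7.15 CPM. HOXC9 also lay lower in each TSC library (−0.31 ± 0.31 SE, edgeR adjusted p = 0.778). None of these passed (HOXA3 −1.45 ± 0.78 SE, edgeR adjusted p = 0.558; HOXA13 −0.60 ± 0.31 SE, edgeR adjusted p = 0.535).

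The TSC libraries differed among themselves. In TSC replicate 1, HOXB6 was at 4.90 CPM against 21.2 and 14.1 CPM in replicates 2 and 3, and HOXA6 at 0.223 CPM against 4.66 and 2.26 CPM. HOXB6 was at 19.1, 13.3 and 14.8 CPM in PC and 21.9 and 10 CPM in CTC, so that replicate 1 of TSC was its lowest library. Summed over HOXA3, HOXA5 and HOXA6, a grouping made after the values were seen, TSC replicates 1 to 3 held 3.34, 10.5 and 4.43 CPM, PC 9.11 to 10.7 CPM and CTC 2.99 and 0.763 CPM. TSC replicate 2 thus lay within the PC range, and replicates 1 and 3 between PC and CTC. HOXA7 to HOXA13 did not follow this, at 67.3, 89.7 and 97.5 CPM in TSC, from 85.8 to 110 CPM in PC, and 98.8 and 99.0 CPM in CTC.

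CTC were set against PC, which addresses what separates cells in blood from cells in the tumour. Again 0 of 26 tested HOX members were called by edgeR, where 3.92% of all genes were. The 3 members with an unadjusted p under 0.05 (23.6% of all genes) were HOXB5, HOXA5 and HOXA3, all lower in CTC. The median was −0.17 over the tested members and −0.04 over all genes. HOXC members had a median of −0.91, with 6 of 7 negative and 0 called.

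HOXB5 (chromosome 17, 48591257 to 48593779), which acts in the neural crest of the gut, was at 6.28, 3.86 and 5.61 CPM in PC, 4.01, 7.34 and 3.07 CPM in TSC and 1.99 and 0 CPM in CTC. The CTC values rest on 2 and 0 counts, and the 0 in replicate 2 allows up to 0.286 CPM, below every PC and TSC library. Pooled over libraries, 2 counts in CTC against 225 in PC make HOXB5 30.7-fold lower in CTC (95% exact interval 8.41 to 255, counting error only). The fitted log2 difference was −4.46 ± 1.23 SE (edgeR adjusted p = 0.0559). HOXA5 (chromosome 7, 27141052 to 27143681), a gene of lung development, was at 4.61, 4.05 and 5.50 CPM in PC, 2.67, 4.16 and 1.18 CPM in TSC and 0 and 0.668 CPM in CTC. Its 7 CTC counts against 205 in PC are 8.0-fold fewer after scaling (3.81 to 20.1, −3.05 ± 0.87 SE, edgeR adjusted p = 0.0619). HOXA3 was at 0.997 and 0 CPM in CTC, from 1 count, which is 34.7-fold lower than in PC, with a wide interval (6.11 to 1380; −4.60 ± 1.52 SE, edgeR adjusted p = 0.092). In these 3 genes both CTC libraries lay below all PC libraries. In CTC replicate 1, however, they had 2 (HOXB5), 0 (HOXA5) and 1 (HOXA3) counts. A count of 0 there already allows up to 2.99 CPM, and 1 or 2 counts allow more. HOXA3 was at 2.91 to 3.13 CPM in PC, so for HOXA3 and HOXB5 a separation of CTC from PC rests on replicate 2.

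**Figure D4:**
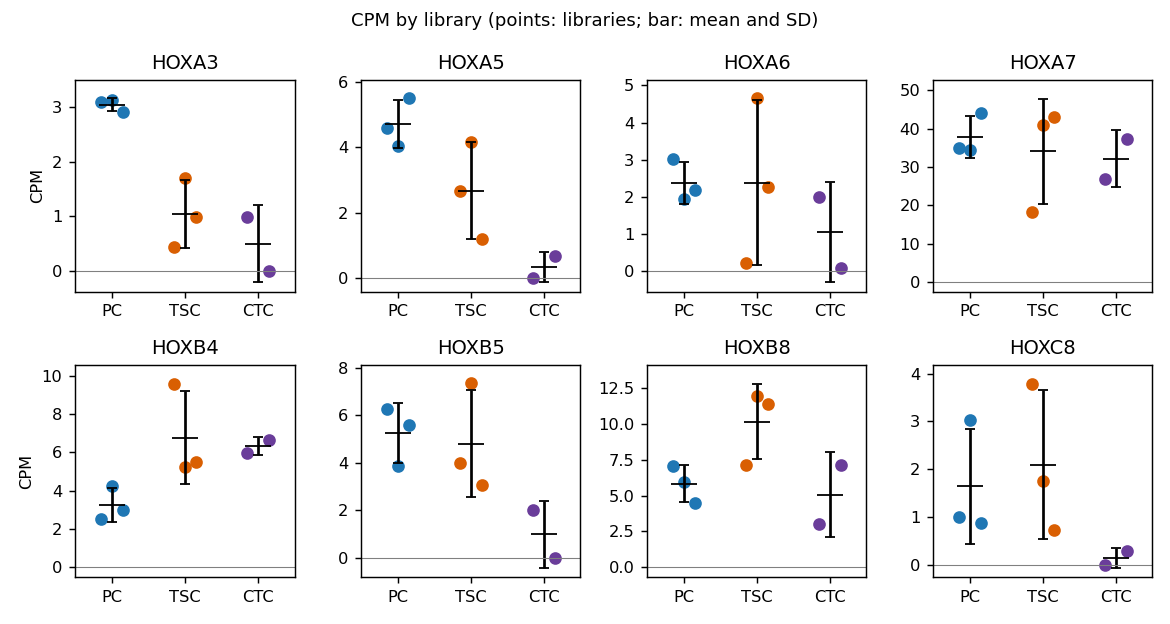
CPM of 8 HOX genes by library, with the mean and SD of each group (PC n = 3, TSC n = 3, CTC n = 2). CTC libraries lie below all PC libraries for HOXA3, HOXA5 and HOXB5, in CTC replicate 1 on 1, 0 and 2 counts. A 0 in that library, as for HOXA5 and HOXC8, allows up to 2.99 CPM, and 1 or 2 counts allow more. TSC libraries lie above all PC libraries for HOXB4 and HOXB8, and HOXA6 and HOXA7 overlap between the groups.

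These genes lay close to the threshold and their calls moved with the setting. DESeq2 called HOXB5, HOXA5 and HOXA3 lower in CTC, 3 of 26 members, where it called 7.56% of all genes. limma-voom called HOXB5 and HOXA3 (11.6% of all genes), edgeR without a filter on low counts called all 3 (6.68%), and edgeR on the CTC and PC libraries alone called HOXB5 and HOXA5 (10.2%). Without TSC replicate 1 all 3 were called (adjusted p = 0.0264 for HOXB5, 0.0355 for HOXA5 and 0.0469 for HOXA3, 11.1% of all genes). Without TSC replicate 2 HOXB5 and HOXA5 were called (adjusted p = 0.0492 and 0.0478, 7.45%), and without CTC replicate 1, the shallowest library, HOXB5 and HOXA3 (adjusted p = 0.00751 and 0.0279, 5.43%). Without CTC replicate 2 none was called (adjusted p = 0.561 for HOXB5, 0.290 for HOXA5 and 0.629 for HOXA3), and the log2 differences of HOXB5 and HOXA3 shrank to −1.40 ± 1.02 SE and −1.61 ± 1.38 SE. The size of both therefore rests on CTC replicate 2, where each had 0 counts. Their direction was the same in all of these fits.

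HOXA6 and HOXC8 stood low in CTC replicate 2 too. HOXA6 was at 3.02, 1.93 and 2.18 CPM in PC and 1.99 and 0.0954 CPM in CTC, with overlap between the groups (−2.57 ± 1.45 SE, edgeR adjusted p = 0.298). HOXC8 was at 1.01, 3.04 and 0.883 CPM in PC, 3.79, 1.76 and 0.724 CPM in TSC and 0 and 0.286 CPM in CTC. The 0 in CTC replicate 1 allows up to 2.99 CPM, above most of these values, so that a separation of CTC from PC rests on replicate 2 (−2.68 ± 1.34 SE, edgeR adjusted p = 0.24). HOXC4, a gene of B cell differentiation, was at 0 in CTC replicate 2 and at 3.99 CPM in replicate 1, so these CTC libraries disagreed. For genes further along HOXA the fitted differences were small: HOXA10 (0.15 ± 0.24 SE), HOXA11 (0.25 ± 0.32 SE) and HOXA7 (−0.18 ± 0.32 SE) had edgeR adjusted p from 0.667 to 0.772. HOXB4 was higher in both CTC libraries, at 5.98 and 6.68 CPM, than in any PC library (0.99 ± 0.49 SE, edgeR adjusted p = 0.24). The CTC libraries also carried the leukocyte transcripts given above and HBB, the β-globin gene, at 164 and 209 CPM against 0 to 0.754 CPM in PC, and their part in the HOX values was not tested. In bulk RNA, fewer cells with a transcript and less of it per cell cannot be told apart.

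TSC were set against CTC, which addresses what separates returned from circulating cells. Here too 0 of 26 members were called by edgeR (0.898% of all genes), and limma-voom called 0 (3.09%). At an unadjusted p under 0.05 there were 3 members, HOXB5, HOXA5 and HOXC8, each higher in TSC (16.7% of all genes). HOXB5 was at 3.07 to 7.34 CPM in TSC against 1.99 and 0 CPM in CTC (4.35 ± 1.24 SE, edgeR adjusted p = 0.114). It was called by DESeq2 as 1 of 25 members (2.87% of all genes), by edgeR without a filter (3.17%), without TSC replicate 1 (adjusted p = 0.0478, 4.91%) and without CTC replicate 1 (adjusted p = 0.0234, 1.12%). HOXA5 had a log2 difference of 2.24 ± 0.87 SE (edgeR adjusted p = 0.218) and HOXC8 of 2.98 ± 1.35 SE (edgeR adjusted p = 0.285). All TSC libraries lay above CTC replicate 2 for all 3 genes. The 0 counts of HOXA5 and HOXC8 in CTC replicate 1 allow up to 2.99 CPM, so that most TSC values of these genes cannot be told from that library. HOXB5 had 2 counts there, which allow more than 2.99 CPM. Without CTC replicate 2 the HOXB5 difference was 1.29 ± 1.03 SE (edgeR adjusted p = 0.611). The median was 0.06 over the tested members and 0.06 over all genes. This comparison shares its CTC libraries with the one above and its TSC libraries with the one before it.

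**Figure D5:**
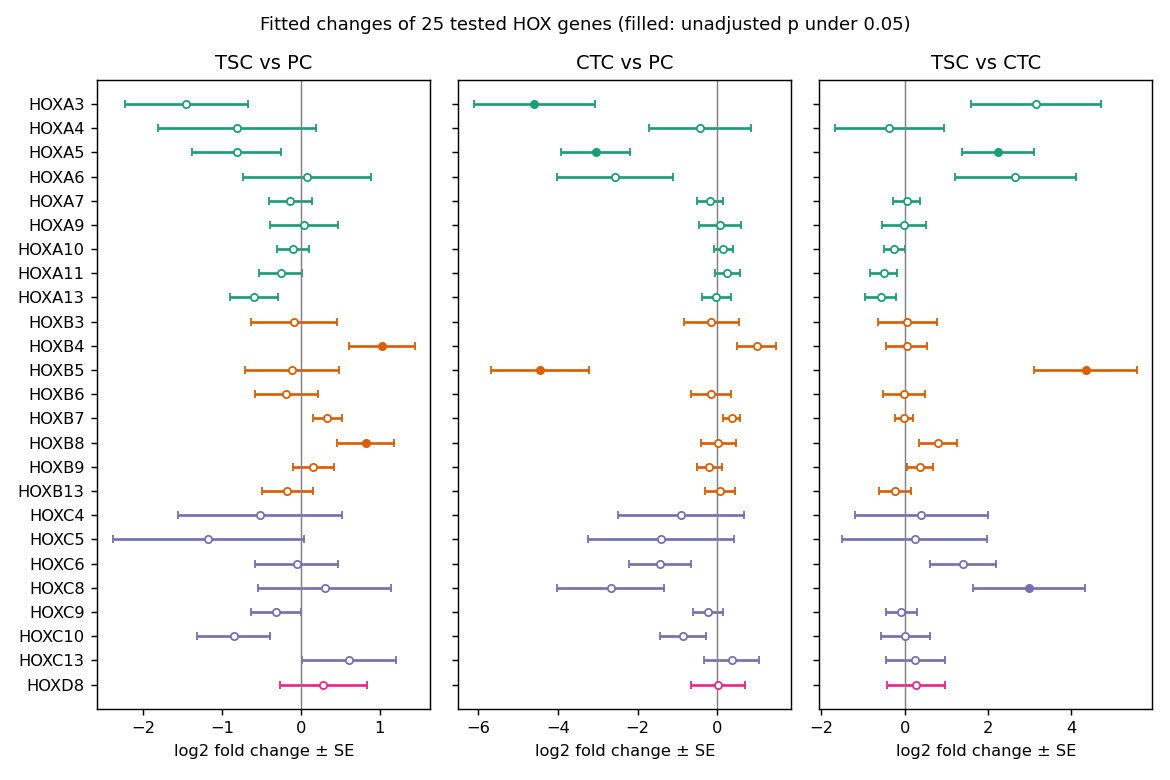
Fitted log2 fold changes with SE of 25 tested HOX genes in the 3 comparisons, ordered by cluster and paralogue group and coloured by cluster. Filled points have an unadjusted p under 0.05 (2, 3 and 3 genes) and 0 points pass after adjustment over all genes. The largest differences, for HOXB5 and HOXA3, are between CTC and PC and have wide errors.

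Depth bears on how many HOX genes a library shows. PC libraries had counts in 30 of 39 members each, TSC libraries in 25, 33 and 29, and CTC libraries in 23 and 24. At the depth of CTC replicate 1, the expected number of counted members was 24.7 to 25.2 in PC, 21.6, 25.3 and 22.8 in TSC and 19 in CTC replicate 2. By this measure CTC replicate 2 was lowest, while CTC replicate 1, with 23, lay within the range of the TSC libraries. Members expected with at least 5 counts did not single it out, at 12.6 against 12.3 to 14.7 in PC and 12.6 to 15.1 in TSC.

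Noncoding transcripts of the clusters were mostly near 0. Of the 25 listed, 5 were tested and 8 were at 0 in all libraries. In each comparison edgeR, DESeq2 and limma-voom called 0 of them. HOXA10-AS in TSC against PC was the 1 with an unadjusted edgeR p under 0.05 (10.3% of all genes). HOXA10-AS, which lies opposite exon bases of HOXA9 and HOXA10, was the most abundant, with 1300 counts, at 14.2, 15.5 and 8.57 CPM in PC, 15.8, 23.6 and 18.7 CPM in TSC and 22.9 and 15.5 CPM in CTC. Each TSC library lay above each PC library, with a log2 difference of 0.63 ± 0.28 SE that was not called (edgeR adjusted p = 0.468). HOTAIR, a HOXC transcript known for interacting with Polycomb, had 15 counts in all, 2, 7 and 6 in PC and 0 elsewhere. HOTTIP, at the posterior end of HOXA, had 42 and HOTAIRM1, at its anterior end, 104 counts. Of the rows for miRNA genes embedded in the clusters, MIR10A, MIR10B, MIR196B and MIR615 were at 0, MIR196A2 had 1 count and MIR196A1 had 39.

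Among the cofactors, 9 of 12 were tested. PBXIP1, which encodes a protein that binds PBX and keeps it from DNA, fell in TSC, from 37.1, 36.5 and 46.2 CPM in PC to 18.3, 18.3 and 20.2 CPM (−1.08 ± 0.22 SE, edgeR adjusted p = 0.0417). It was the single cofactor edgeR called in TSC against PC (0.505% of all genes), where the list had a median of −0.26. In CTC against PC (median −0.58) edgeR called 0 (3.92% of all genes), with 5 of 9 at an unadjusted p under 0.05 (23.6%). There DESeq2 and limma-voom each called PBXIP1 lower, 1 of 9 (7.56% and 11.6% of all genes). In TSC against CTC (median 0.28) all of these tools called 0, with 1 at an unadjusted edgeR p under 0.05 (16.7% of all genes). MEIS1, which partners HOXA9 in leukaemia, had 5 counts in all. MEIS3 had 2087, at −0.87 ± 0.29 SE in CTC against PC (edgeR adjusted p = 0.0917).

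Of 41 Polycomb and trithorax genes 39 were tested. PHC2, a subunit of Polycomb repressive complex 1, fell in CTC, from 115, 123 and 161 CPM in PC to 49.9 and 61.5 CPM (−1.23 ± 0.25 SE, edgeR adjusted p = 0.0179). It was the single edgeR call of the list in CTC against PC (median −0.14), where 3.92% of all genes were called. There 9 of 39 members had an unadjusted p under 0.05, 8 of them lower, against 23.6% of all genes. DESeq2 called 4 of 39 members and limma-voom 5, all lower, where they called 7.56% and 11.6% of all genes. In TSC against PC (median −0.01) edgeR and DESeq2 called 0 and limma-voom 3 of 39 (3.88% of all genes). There 6 of 39 had an unadjusted edgeR p under 0.05 (10.3% of all genes). In TSC against CTC (median 0.17) all of these tools called 0, with 3 at an unadjusted edgeR p under 0.05 (16.7% of all genes). EZH2, the methyltransferase of Polycomb repressive complex 2, was at 0.27 in CTC against PC (edgeR adjusted p = 0.485), and KMT2A, a methyltransferase that keeps HOX genes active, at −0.53 (edgeR adjusted p = 0.288). CDX2 was at 28.7, 27.7 and 25.3 CPM in PC, 29.2, 25.3 and 28.9 CPM in TSC and 13 and 33.9 CPM in CTC, with overlap throughout. Of the 17 ParaHox genes and other regulators, 11 were tested. RARB, a retinoic acid receptor gene, was called higher in CTC against PC on 4 and 27 counts, with 0 counts in all PC and TSC libraries (edgeR adjusted p = 0.0387). It was the single edgeR call of the list there, 1 of 11 (3.92% of all genes), with 4 of 11 at an unadjusted p under 0.05 (23.6%). For this comparison limma-voom called RARB and ALDH1A1 higher, 2 of 11 (11.6%), and DESeq2 called 0 of 10 (7.56%). In TSC against CTC edgeR and DESeq2 called 0, and limma-voom called RARB lower, 1 of 11 (3.09%). There 2 of 11 had an unadjusted edgeR p under 0.05 (16.7%). ALDH1A3, a retinaldehyde dehydrogenase gene, was called higher in TSC than in PC by DESeq2 and limma-voom (1.59% and 3.88% of all genes). There edgeR called 0 of the list, with 1 at an unadjusted p under 0.05 (10.3% of all genes).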

How the data were processed

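The deposited table holds raw counts per gene symbol. Per the submitters' processing notes, the authors used STAR 2.5.3a and featureCounts 1.5.3 with genome build hg38. No source used here states the annotation, the strand setting or the handling of host and multi-mapping reads. Per the labels' protocols, total RNA was depleted of ribosomal RNA.

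The 8 libraries, in the groups their titles give, entered 1 quasi-likelihood fit (glmQLFit and glmQLFTest of edgeR 4.0.16, R 4.3.3) with TMM scaling and the 14255 genes that filterByExpr kept. A call is a Benjamini-Hochberg adjusted p below 0.05, with the adjustment over those genes. SE is the log2 fold change divided by the square root of F. CPM use totals over tested genes with TMM factors. Exon lengths and overlaps are from GENCODE 29 (all 39 members matched by symbol, HOXC5 from 2 entries). Alternatives used DESeq2 1.42.0 and limma 3.58.1. The fitting script was tested on simulated counts.

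Values in every library are given for members that were called, had an unadjusted p under 0.05, or were among the 12 highest per kilobase or the highest of a cluster. HOXA6, HOXC4 and the members with few counts were singled out after their values were seen, as were some genes of the lists. Alternatives changed the scaling, filter, tool, libraries fitted and replicate block, and left out each library. Totals per library ran from 957607 to 19264595 counts. Members, lists and tests were chosen with earlier results of these data known. Some members and list genes are not reported here.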

Additional observations from a re-analysis of the deposited data

How the results depend on the processing

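In TSC against PC the number of HOX members called was 0 under all alternatives tried: DESeq2 size factors, no filter and a stricter filter on low counts, DESeq2, limma-voom, the libraries of the compared groups alone, a replicate block and each library left out in turn. In CTC against PC it was 3 with no filter and with DESeq2, 2 with limma-voom and with the compared groups alone, and 0 to 3 with single libraries left out. In TSC against CTC it was 1 with no filter and with DESeq2, and 0 to 1 with single libraries left out. HOXB5, HOXA5 and HOXA3 account for these calls, and no called value changed sign. The fits without 1 CTC library leave a lone sample, which is assumed to vary like the other groups. The cause of these shifts was not tested.

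With the replicate number as a block, 0 members were called in each comparison. Same-numbered TSC and PC libraries did not deviate together (correlations across genes of 0.0328, −0.134 and 0.0943), so the numbers were not taken as pairs.

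Per kilobase of exon the cluster shares moved beyond 1 SD: HOXA to 27.8% in TSC, 33.7% in PC and 32.1% in CTC, HOXB to 57.6%, 49.0% and 56.0%, and HOXC in PC to 16.2%. The number of tested members per cluster was the same with at least 10 counts in 2 libraries. With a mean CPM of at least 1 it was 9 for HOXA and 6 for HOXC, and 6 for HOXC without PC replicate 1. The expected number of counted members at the shallowest depth was added after the data were seen. CTC replicate 1, at 957607 counts, limits what can be said of HOX genes under about 3 CPM.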
